A study of Mus musculus with 7 samples.

Results

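The ETS transcription factors described here as factors of blood progenitors are Sfpi1, Etv6, Fli1, Erg, Ets1, Ets2, Elf1 and Gabpa. They were chosen by gene symbol, and 7 of the 8 are described, out of 20464 rows in the expression table, of which 9259 genes were tested. Sfpi1, the older symbol of the PU.1 gene, is not analysed here. RNA was sequenced from EML cells, a multipotent mouse line that depends on stem cell factor and was immortalised with a dominant-negative retinoic acid receptor, so every library stems from a single line. The groups were sorted after cells binding Annexin V had been discarded, CD34-positive cells (3 libraries) and CD34-negative cells (4 libraries). All 7 libraries carry the strain label C57BL/6, a bone marrow tissue label and a postnatal age label, although the source label names the line. The titles define the groups, because the genotype label of the CD34-negative libraries says CD43.

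ETS factors share a DNA-binding domain that recognises a GGAA core. In mouse blood formation, Erg and Fli1 are close relatives needed for stem cell maintenance and megakaryocytes. Etv6 is a repressor that adult marrow stem cells need, and PU.1 drives myeloid and B lymphoid fates.

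The description of each library carries a number that crosses the groups. Number 3 marks replicate 1 of both, number 2 marks replicate 2 of both, and number 4 marks CD34-positive replicate 3 with CD34-negative replicates 3 and 4, the last written as 4a. The description of CD34-positive replicate 1 reads 3a and that of CD34-negative replicate 1 reads 3. The libraries numbered 4 stood apart: ribosomal protein genes made up 3.51% of summed FPKM in the CD34-positive one and 2.08% and 3.89% in the CD34-negative ones, where the remaining 4 libraries had 25.2% to 33.4%. FPKM counts fragments relative to transcript length and library size, which allows levels to be compared between genes, but the depth of sequencing is unknown. Cd34 itself stood at 147, 256 and 153 FPKM in CD34-positive replicates 1 to 3, against 91.8, 19.3, 2.67 and 6.02 FPKM in CD34-negative replicates 1 to 4. The groups did not overlap, and CD34-negative replicate 1 was the closest to the CD34-positive side. Of the 5 B cell and 5 T cell markers none reached the minimum for testing, and Pax5, Ebf1, Cd3e and Cd8a were listed at 0.

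RefSeq promoter windows (build GRCm38.p6, 250 bases before to 50 after a gene start) were at hand for Etv6, Erg, Ets2, Elf1 and Gabpa. Those of Erg, Etv6 and Elf1 are printed because these genes had higher values in the CD34-positive library of every pair with equal number, and that of Ets2 because it neighbours Erg and had lower ones. For genes with several starts the most upstream window is given. Capitals mark GGAA, the ETS core, or TTCC, its reverse complement.
Erg, chr16:95586544-95586843, minus strand: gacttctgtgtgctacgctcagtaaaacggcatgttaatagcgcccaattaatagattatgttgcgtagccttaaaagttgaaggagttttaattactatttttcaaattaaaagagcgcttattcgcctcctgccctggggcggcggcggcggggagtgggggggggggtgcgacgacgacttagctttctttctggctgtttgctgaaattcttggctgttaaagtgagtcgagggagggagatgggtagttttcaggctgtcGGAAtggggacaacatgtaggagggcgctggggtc
Etv6, chr6:134035450-134035749, plus strand: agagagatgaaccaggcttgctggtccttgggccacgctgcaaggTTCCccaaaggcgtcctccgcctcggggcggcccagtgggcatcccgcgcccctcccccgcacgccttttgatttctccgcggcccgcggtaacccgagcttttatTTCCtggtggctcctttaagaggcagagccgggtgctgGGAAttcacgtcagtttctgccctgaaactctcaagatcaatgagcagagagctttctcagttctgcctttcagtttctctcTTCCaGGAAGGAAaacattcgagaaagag
Elf1, chr14:79480944-79481243, plus strand: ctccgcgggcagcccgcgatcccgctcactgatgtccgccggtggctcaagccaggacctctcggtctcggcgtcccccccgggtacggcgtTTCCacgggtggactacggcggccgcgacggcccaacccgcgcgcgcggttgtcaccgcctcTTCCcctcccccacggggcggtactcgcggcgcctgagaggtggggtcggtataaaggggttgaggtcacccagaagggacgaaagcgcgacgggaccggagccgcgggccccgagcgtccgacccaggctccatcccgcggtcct
Ets2, chr16:95702157-95702456, plus strand: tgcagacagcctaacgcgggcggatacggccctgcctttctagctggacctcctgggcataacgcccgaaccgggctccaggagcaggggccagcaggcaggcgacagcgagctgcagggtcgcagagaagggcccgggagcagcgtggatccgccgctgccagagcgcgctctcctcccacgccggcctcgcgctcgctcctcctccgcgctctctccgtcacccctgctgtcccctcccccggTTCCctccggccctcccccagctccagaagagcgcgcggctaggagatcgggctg
On both strands together the core occurred 1 time in the Erg window, 6 times in that of Etv6, 2 times in that of Elf1 and 1 time in that of Ets2. It is a common word, found in 96.0% of 32851 windows with a median of 3, and 15.7% of windows hold at least as many as Etv6. The other windows of Erg held 4 and 2 cores, the second window of Elf1 held 1 and the Gabpa window 5. The longer word CCGGAAGT, which contains GGAA, was searched on both strands; it was in 0 of these windows and in 3.89% of all.

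Elf1, Fli1, Etv6 and Erg were the most abundant of the 7 factors in either group by mean level. CD34-positive means (SD, n = 3) were 47.2 ± 30.4 FPKM for Elf1, 44.8 ± 20.02 for Fli1, 40.4 ± 12.1 for Etv6 and 33.6 ± 20.1 for Erg. CD34-negative means (SD, n = 4) were 35.8 ± 22.9 FPKM for Elf1, 29.2 ± 20.4 for Fli1, 24.4 ± 12.05 for Etv6 and 18.3 ± 15.0 for Erg. The group means of these 4 neighbours in the order did not differ beyond the spread among libraries, although Fli1 exceeded Erg in every library. Gabpa came next with a mean of 11.9 ± 4.69 FPKM in CD34-positive cells (SD, n = 3) and 12.3 ± 5.61 FPKM in CD34-negative cells (SD, n = 4). Ets2 averaged 3.28 ± 0.646 and 4.30 ± 1.07 FPKM, and Ets1, the lowest, 1.07 ± 0.784 and 1.75 ± 1.74 FPKM in the same groups. Among all tested genes the mean of Elf1 lay at percentile 80.4 and that of Ets1 at percentile 4.03. The order by mean was also the order within CD34-positive replicates 1 and 3 and CD34-negative replicate 1, whereas Etv6 came first in replicate 2 of both groups and Fli1 in CD34-negative replicate 3.

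**Figure D1:**
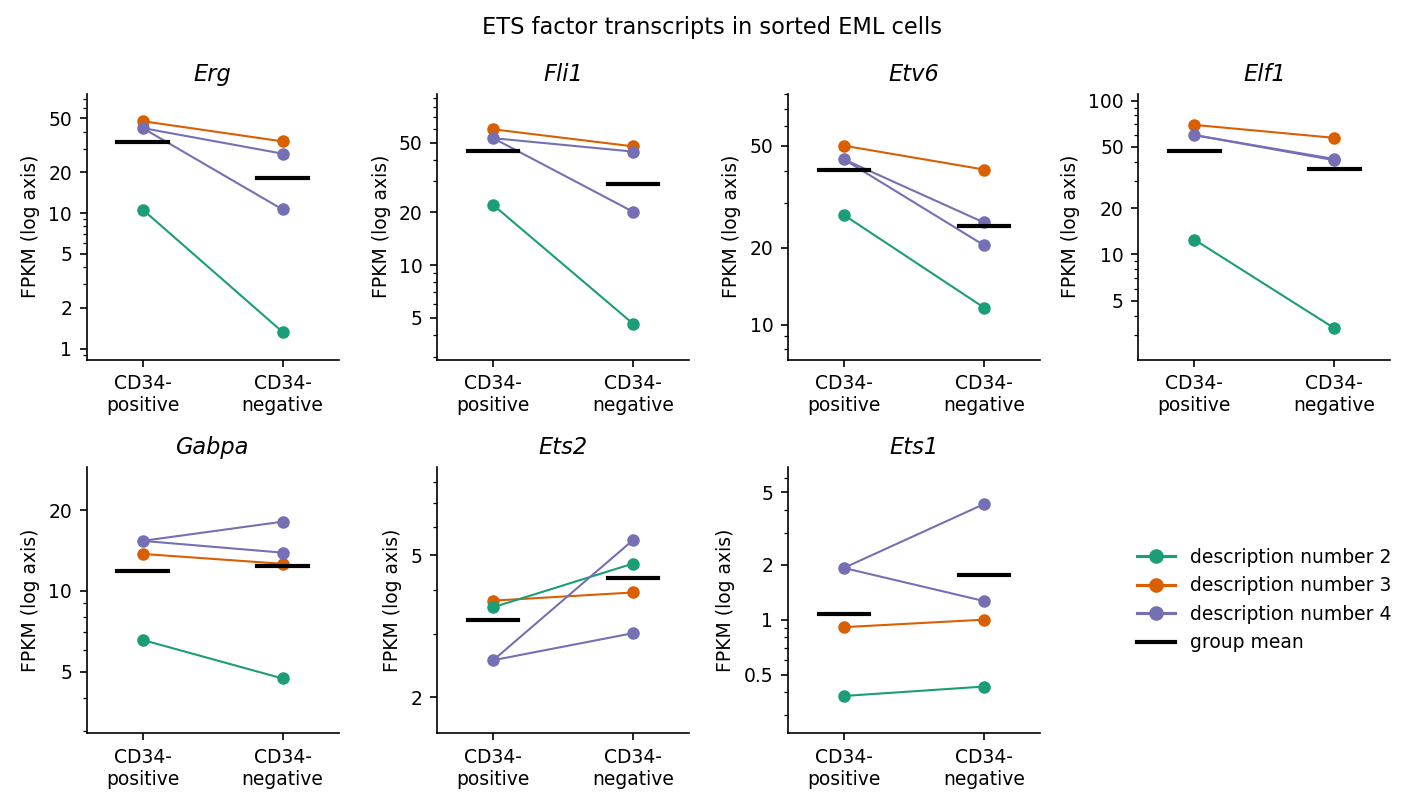
FPKM (log axis) of the 7 ETS factors, with CD34-positive libraries on the left and CD34-negative libraries on the right of each panel; each point is a library coloured by description number, lines join libraries of equal number and black bars are group means. Every line of Erg, Fli1, Etv6 and Elf1 slopes down to the right, and the number 2 libraries are lowest in both groups, with Erg at 10.6 FPKM in the CD34-positive and 1.33 FPKM in the CD34-negative one.

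Erg, Fli1, Etv6 and Elf1 were higher in the CD34-positive library within all 4 pairs of equal number, yet no factor passed the test and the groups overlapped for all 7. In limma without a block 0 of the 7 reached an adjusted p under 0.05 in either direction, and the share among all tested genes was 0% in both directions. Before adjustment, at p under 0.05, the fit held 0 of the 7, against 3.38% of tested genes as higher (313 genes) and 2.27% as lower (210 genes). Without CD34-negative replicate 1, 1 of the 7 reached such a p as higher, against 6.25% of tested genes in the same fit. Of the 7 factors, 0 had groups without overlap, where 2.67% of tested genes were separated as higher and 3.01% as lower.

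With the description number as a block, 4 of the 7 had an unadjusted p under 0.05 as higher and 0 as lower, where 12.8% of tested genes were higher and 9.14% lower. No gene passed after adjustment in the blocked fit either (0% in each direction). In the blocked fit without the number 2 libraries 2 of the 7 had such an unadjusted p as higher, against 5.22% of tested genes. Differences were above 0 in all 4 pairs for 4 of the 7, against 21.4% of tested genes, and below 0 in all 4 pairs for 1 of the 7, Ets2, against 18.9%. CD34-positive replicate 3 enters a pair with number 4 and another with 4a. In the fit without a block 4 of the 7 had a difference above 0.5, against 13.6% of tested genes, and the median was 0.58 over the 7 and 0.086 over all tested genes. Both values moved with CD34-negative replicate 2: without it 0 of the 7 were above 0.5, against 18.4% of tested genes, and their median was -0.25. That fit keeps CD34-positive replicate 2, which has the same number. Without both libraries, a setting chosen after seeing the data, 3 of the 7 were above 0.5, against 11.6% of tested genes. Their median was then 0.47 (0.41 with the block). Without CD34-positive replicate 1 the median was 0.14 and without CD34-positive replicate 3 it was 0.25. It was 1.05 without CD34-positive replicate 2, and leaving out CD34-negative replicate 1 gave 0.97. All differences are CD34-positive minus CD34-negative values of log2(FPKM + 1), a scale that understates changes of low genes. In bulk RNA, fewer cells carrying a transcript and less of it per cell cannot be told apart.

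Erg, which maintains blood stem cells, had the largest difference of the 7 in the fit. Its level was 47.8, 10.6 and 42.5 FPKM in CD34-positive replicates 1 to 3, against 33.9, 1.33, 27.5 and 10.6 FPKM in CD34-negative replicates 1 to 4. CD34-negative replicates 1 and 3 exceeded CD34-positive replicate 2, and CD34-negative replicate 4 was level with it, so the groups overlapped. The difference was 1.18 (SE 0.94, limma adjusted p = 1.0), or 1.34 (SE 0.41, limma adjusted p = 0.134) with the block. The CD34-positive level was 8.01 times the CD34-negative one in the number 2 pair, 1.41 times in the number 3 pair, 1.55 times in the number 4 pair and 3.99 times in the 4a pair. Among tested genes these pair differences lay at percentiles 99.4, 95.4, 91.0 and 98.6. The fitted value moved with the number 2 libraries and was 0.36 without CD34-negative replicate 2 and 1.85 without CD34-positive replicate 2.

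Fli1, an activator of stem cell and megakaryocyte genes, ran alongside Erg from library to library. Its level was 59.5, 22.04 and 53.0 FPKM in CD34-positive replicates 1 to 3, against 47.6, 4.63, 44.4 and 20.1 FPKM in CD34-negative replicates 1 to 4. Replicates 2 and 4 were its low CD34-negative libraries, as they were for Erg. The difference was 0.90 (SE 0.76, limma adjusted p = 1.0), or 1.03 (SE 0.38, limma adjusted p = 0.183) with the block, and 0.23 without CD34-negative replicate 2. Pair ratios for numbers 2, 3, 4 and 4a were 4.76, 1.25, 1.19 and 2.63. Their log2 differences lay at percentiles 98.9, 87.4, 72.9 and 96.4 of tested genes. Fli1 exceeded Erg in every library, by a factor of 1.25, 2.07 and 1.25 in CD34-positive replicates 1 to 3 and 1.405, 3.49, 1.62 and 1.89 in CD34-negative replicates 1 to 4. Within each pair the factor was smaller on the CD34-positive side.

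Etv6, the repressor, had groups that overlapped through a single library. Its level was 50.1, 26.9 and 44.3 FPKM in CD34-positive replicates 1 to 3, against 40.4, 11.7, 20.5 and 25.1 FPKM in CD34-negative replicates 1 to 4. CD34-negative replicate 1 alone lay above the lowest CD34-positive library. The difference was 0.78 (SE 0.45, limma adjusted p = 1.0), or 0.81 (SE 0.19, limma adjusted p = 0.0951) with the block, the smallest adjusted p among the 7 in that fit. It was 0.49 without CD34-negative replicate 2. Pair ratios for numbers 2, 3, 4 and 4a were 2.30, 1.24, 2.17 and 1.77. Their log2 differences lay at percentiles 94.4, 86.5, 96.5 and 90.9 of tested genes.

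Elf1, an ETS activator expressed across blood cells, varied more with the library number than with CD34. Its level was 69.4, 12.5 and 59.6 FPKM in CD34-positive replicates 1 to 3, against 57.2, 3.31, 41.7 and 40.9 FPKM in CD34-negative replicates 1 to 4. CD34-positive replicate 2 lay below 3 of the 4 CD34-negative libraries. The difference was 0.58 (SE 0.96, limma adjusted p = 1.0), or 0.78 (SE 0.25, limma adjusted p = 0.147) with the block. Without CD34-negative replicate 2 it turned to -0.29, and it was 0.14, 1.34 and 0.25 without CD34-positive replicates 1, 2 and 3 in turn. Pair ratios for numbers 2, 3, 4 and 4a were 3.77, 1.21, 1.43 and 1.46. Their log2 differences lay at percentiles 97.8, 84.5, 88.0 and 84.9 of tested genes.

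Gabpa, the DNA-binding subunit of a complex that needs a Gabpb partner, was at nearly equal levels in the groups. Its level was 13.8, 6.56 and 15.4 FPKM in CD34-positive replicates 1 to 3, against 12.6, 4.71, 13.9 and 18.1 FPKM in CD34-negative replicates 1 to 4. Number 2 libraries were again the lowest. The difference was 0.0023 (SE 0.47, limma adjusted p = 1.0), or 0.14 (SE 0.17, limma adjusted p = 0.657) with the block, and its sign turned under quantile normalization (-0.11) and median-ratio scaling (-0.093). Pair ratios for numbers 2, 3, 4 and 4a were 1.39, 1.09, 1.11 and 0.848. Their log2 differences lay at percentiles 69.6, 66.4, 63.6 and 30.0 of tested genes.

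Ets2, a widely expressed factor activated through Ras signalling, was the lower of each pair in CD34-positive cells. Its level was 3.73, 3.58 and 2.54 FPKM in CD34-positive replicates 1 to 3, against 3.93, 4.74, 5.51 and 3.03 FPKM in CD34-negative replicates 1 to 4. Alone among the 7 it was not low in the number 2 libraries, and its groups overlapped through CD34-negative replicate 4. The difference was -0.30 (SE 0.28, limma adjusted p = 1.0), or -0.33 (SE 0.21, limma adjusted p = 0.411) with the block. Without the block it was -0.19 when CD34-negative replicate 3 was left out and -0.17 when CD34-positive replicate 3 was. The pair ratios were 0.755, 0.949, 0.461 and 0.840 for numbers 2, 3, 4 and 4a. Their log2 differences lay at percentiles 20.1, 39.6, 6.07 and 33.6 of tested genes.

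Ets1, best known from lymphocytes, was near the minimum of 1 FPKM. Its level was 0.910, 0.382 and 1.92 FPKM in CD34-positive replicates 1 to 3, against 1.0, 0.430, 4.30 and 1.27 FPKM in CD34-negative replicates 1 to 4. CD34-negative replicate 3 was its highest library, and the sign of the fit without a block rested on it. The difference was -0.29 (SE 0.47, limma adjusted p = 1.0), or -0.13 (SE 0.29, limma adjusted p = 0.818) with the block. Without that library the fit without a block gave 0.084. Pair ratios for numbers 2, 3, 4 and 4a were 0.888, 0.910, 0.447 and 1.52. Their log2 differences lay at percentiles 37.6, 38.6, 6.38 and 78.8 of tested genes.

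The 2 low genes each lie beside a high one in the genome. RefSeq (GRCm38.p6) places Fli1 next to Ets1 on chromosome 9 and Erg next to Ets2 on chromosome 16, with 0 protein-coding genes in between. The pair ratio of Erg was above 1 in all 4 pairs and that of Ets2 below 1 in all 4. The pair ratio of Fli1 was above 1 in all 4 pairs and that of Ets1 in the 4a pair alone, at 1.52. The difference between neighbours was not tested.

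**Figure D2:**
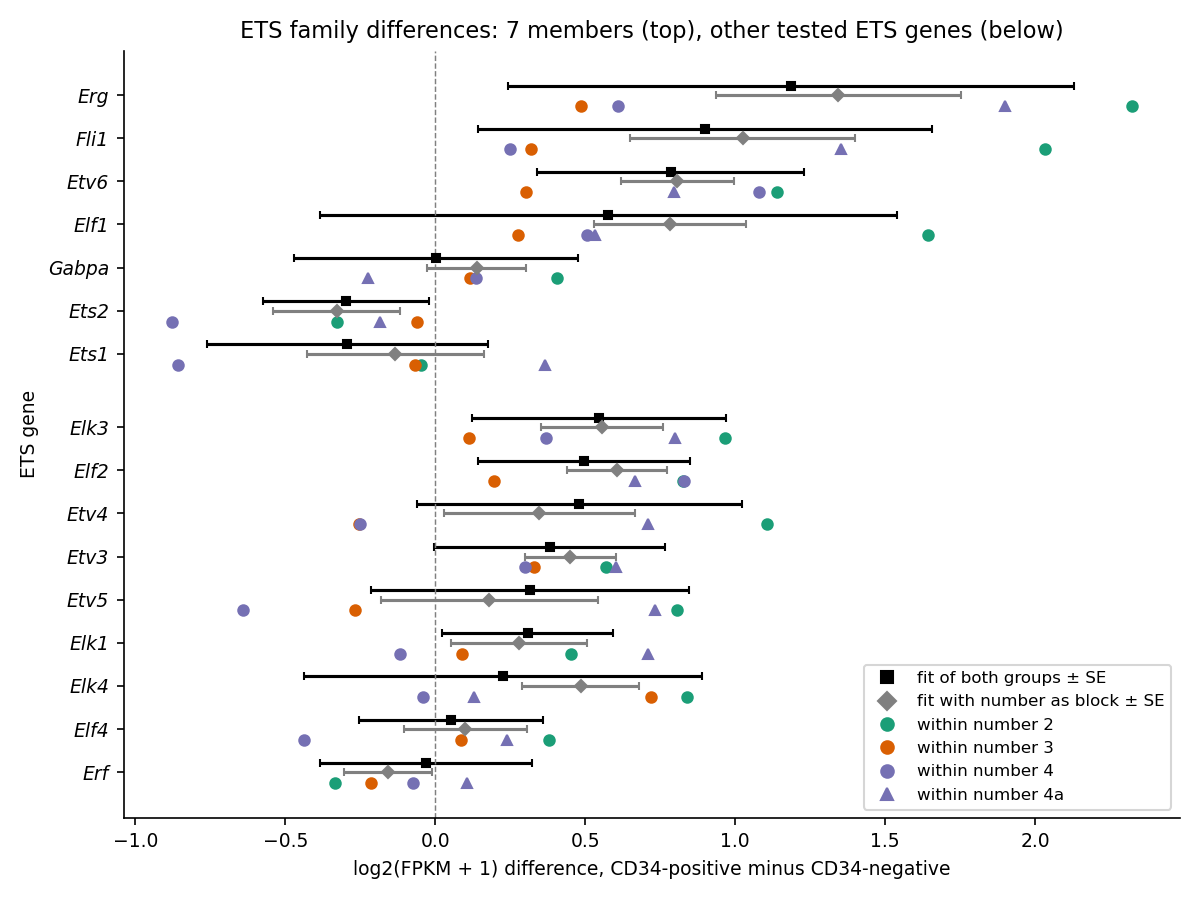
Difference in log2(FPKM + 1), CD34-positive minus CD34-negative, for the 7 ETS factors (upper block) and the 9 other tested ETS genes (lower block); black squares come from the fit of both groups, grey diamonds from the fit with the number as block, both with standard errors, and coloured symbols are differences within equal numbers. The coloured symbols of Erg, Fli1, Etv6 and Elf1 all lie right of 0 and those of Ets2 all lie left of it.

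The number 2 libraries set the widest contrast for several of these genes. Elf1 stood at 3.31 to 12.5 FPKM in the 2 number 2 libraries and at 40.9 to 69.4 FPKM in the other 5. Its mean log2 difference between them was -2.82, at percentile 0.194 of tested genes, against a median of 0.073. For Erg it was -2.53 (percentile 0.302) and for Fli1 -1.93 (percentile 1.38). Gabpa differed by -1.25, Ets1 by -0.92, Etv6 by -0.90 and Ets2 by 0.14.

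Transcript length moved with the same libraries. Across 8726 tested genes with a protein-coding transcript in GENCODE M21, Spearman's rho between transcript length and the centred log2 value was 0.032, -0.51 and 0.43 in CD34-positive replicates 1 to 3 and -0.26, -0.50, 0.45 and 0.44 in CD34-negative replicates 1 to 4. For the differences within pairs rho was 0.21 (number 2), 0.36 (number 3), -0.038 (number 4) and -0.0079 (4a). Genes are not independent replicates, so these are descriptions. The longest transcripts of the 7 factors range from 3249 bases (Erg) to 5707 bases (Etv6), and the part of length in their differences was not tested. Without the libraries numbered 4 the differences were 1.403 for Erg, 1.18 for Fli1, 0.72 for Etv6, 0.96 for Elf1, 0.26 for Gabpa, -0.19 for Ets2 and -0.058 for Ets1. Without those numbered 2 they were 1.03 for Erg, 0.67 for Fli1, 0.75 for Etv6, 0.47 for Elf1, -0.016 for Gabpa, -0.31 for Ets2 and -0.29 for Ets1.

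Erythroid and mast cell markers were mostly separated between the groups, although 0 passed after adjustment in limma. Of the 5 erythroid markers 4, among them Gata1, Klf1 and Epor, had CD34-positive values below all CD34-negative ones, against 3.01% of tested genes. The 5 summed to 41.0 to 647 FPKM in CD34-positive libraries and 125 to 1847 FPKM in CD34-negative libraries, with Hbb-b1 the largest term at the upper ends. CD34-negative replicate 2, the lowest CD34-negative library for all of the 7 but Ets2, had the highest Gata1 (167 FPKM) and Klf1 (175 FPKM), both erythroid activators. CD34-positive replicate 2, of the same number, was likewise the lowest CD34-positive library for all of the 7 but Ets2. It had Gata1 at 16.3 FPKM and Klf1 at 3.10 FPKM, below every CD34-negative library. Hbb-b1, of the same list, went the other way and was highest in the number 2 libraries. It stood at 624 FPKM in CD34-positive replicate 2 and 1405 FPKM in CD34-negative replicate 2. Every other library had 154 FPKM or less. The CD34-positive sum of 647 FPKM was that of replicate 2. Of the 5 mast cell markers 4 (Cma1, Mcpt4, Hdc and Ms4a2) were lower in CD34-positive cells without overlap. The fifth, the protease gene Cpa3, was not: it stood at 1936, 2219 and 3044 FPKM in CD34-positive replicates 1 to 3, against 1655, 451, 3134 and 624 FPKM in CD34-negative replicates 1 to 4 (1.10, SE 1.08), and made up most of each CD34-positive sum. The mast cell sums were 2124 to 3203 FPKM in CD34-positive libraries and 1646 to 10408 FPKM in CD34-negative ones. Of the 4 stromal markers Pdgfrb alone was tested, with 62.9, 38.9 and 43.7 FPKM in CD34-positive replicates 1 to 3 and 53.3, 16.6, 33.4 and 17.0 FPKM in CD34-negative replicates 1 to 4, and it was higher in all 4 pairs, while Col1a2 and Pdgfra were listed at 0. The part of these markers in the ETS differences was not tested.

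Profiles were compared by the root mean square difference of log2 values over the 7 libraries, each gene centred on its mean. Since libraries share numbers, genes that dip in the number 2 libraries resemble each other by this measure. Nearest to Erg among all tested genes were Cpne3 (0.30), Fli1 (0.34) and Ankrd44 (0.40), and nearest to Fli1 Cpne3 (0.12), Ankrd44 (0.16) and Lrrfip1 (0.20). Fli1 was thus the second nearest gene to Erg. The nearest to Elf1 were Lypla1 (0.27), Pik3r1 (0.31) and F2r (0.33), and to Etv6 Arhgap26 (0.055), 2610018G03Rik (0.10) and Gclc (0.10). Those of Gabpa were Zhx1 (0.054), Smchd1 (0.063) and Clasp2 (0.067), and those of Ets1 Gramd1b (0.088), Samsn1 (0.16) and Med12l (0.18). Ets2 spanned 0.88 log2 units, under the minimum of 1 for this comparison. It lay 1.54 from its neighbour Erg, and 56.2% of tested genes lay nearer to Erg.

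**Figure D3:**
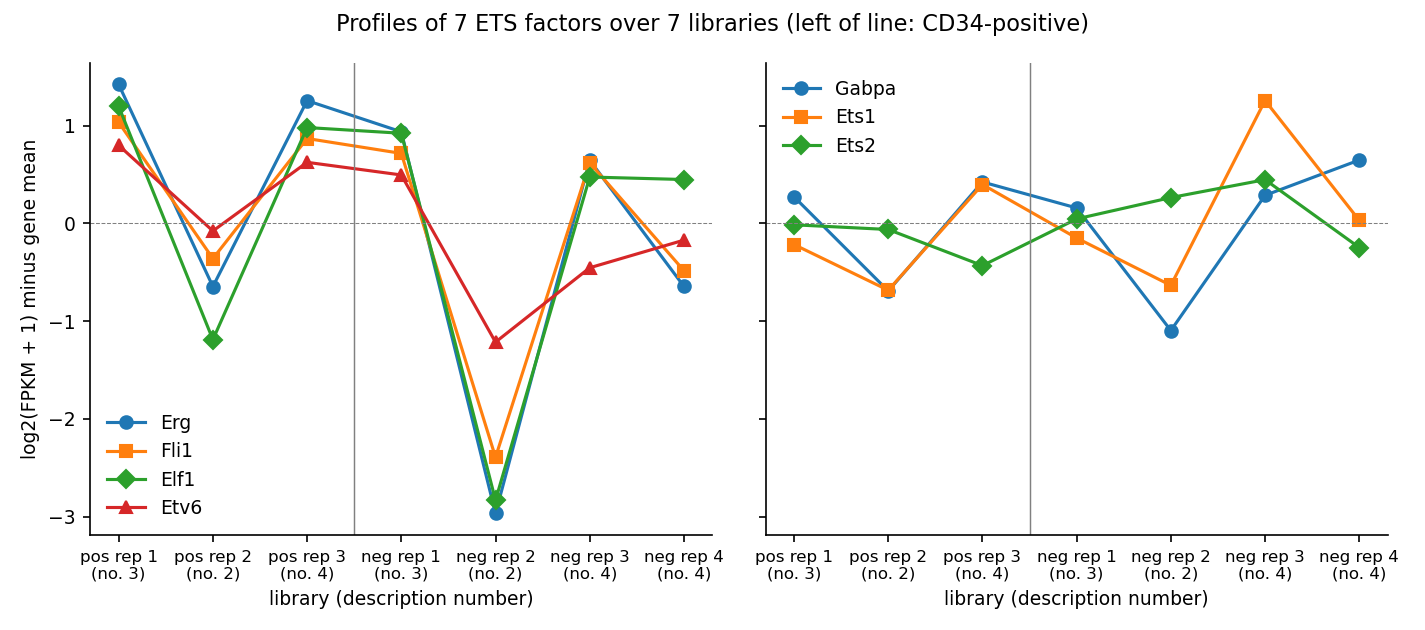
Log2(FPKM + 1) minus the gene's mean over the 7 libraries, with CD34-positive libraries left of the vertical line and CD34-negative ones right of it, for Erg, Fli1, Elf1 and Etv6 (left panel) and Gabpa, Ets1 and Ets2 (right panel). Erg, Fli1 and Elf1 fall farthest in CD34-negative replicate 2, where they stand at 1.33, 4.63 and 3.31 FPKM, and Ets2 spans 0.88 log2 units.

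Of 18 other mouse ETS genes 9 were tested, and 0 of them passed in limma, either after adjustment or at an unadjusted p under 0.05 without the block. At that unadjusted p 3.38% of tested genes were higher and 2.27% lower. Elf3, Elf5, Ehf, Etv1, Etv2, Fev, Spdef, Spib and Spic were under the minimum, and Elf5, Ehf, Etv1, Etv2, Fev and Spic were listed at 0 in all 7 libraries. Of the 9 tested, 8 had differences above 0 (median 0.32, 0.20 to 0.50 with 1 library left out), although that of Elf4 turned under quantile normalization (-0.050) and median-ratio scaling (-0.047). Most tested genes also lay above 0, since Gabpa, at 0.0023, ranked 5722 from the highest of 9259. Elf2, Elk3 and Etv3 were above 0 in all 4 pairs, as were 21.4% of tested genes. Elf2, a relative of Elf1, averaged 22.9 ± 8.24 FPKM in CD34-positive cells (SD, n = 3) and 15.9 ± 4.42 FPKM in CD34-negative cells (SD, n = 4), a difference of 0.50 (SE 0.35), or 0.23 without CD34-positive replicate 3. Elk3, a partner of serum response factor, averaged 13.2 ± 3.83 and 9.32 ± 4.82 FPKM in these groups, and the repressor Etv3 5.82 ± 2.14 and 4.28 ± 1.67 FPKM. Leaving out CD34-negative replicate 2 gave 0.29 for Elf2, 0.26 for Elk3 and 0.12 for Etv3, where all libraries gave 0.50, 0.55 and 0.38. With the block Elf2, Elk3, Elk4 and Etv3 had an unadjusted p under 0.05 as higher, with limma adjusted p of 0.113, 0.182, 0.212 and 0.157. In that fit 12.8% of tested genes had such an unadjusted p as higher.

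Etv4 and Etv5, which belong to one subfamily, peaked where Erg and Elf1 dipped. Etv4 stood at 8.86, 35.5 and 9.07 FPKM in CD34-positive replicates 1 to 3, against 10.8, 15.97, 11.0 and 5.16 FPKM in CD34-negative replicates 1 to 4. Etv5 stood at 3.35, 11.5 and 2.81 FPKM in the CD34-positive and 4.24, 6.13, 4.95 and 1.29 FPKM in the CD34-negative replicates. For both genes the number 2 library was the highest of each group. The differences were 0.48 (SE 0.54) for Etv4, 0.32 (SE 0.53) for Etv5, 0.31 (SE 0.28) for Elk1, 0.23 (SE 0.66) for Elk4, 0.052 (SE 0.31) for Elf4 and -0.031 (SE 0.35) for the repressor Erf. That of Elk1 was 0.14 without CD34-negative replicate 4. With 1 library left out those of the other 5 took both signs.

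ETS factors work with partners, of which 15 were listed and 12 tested. After adjustment 0 passed in limma, and at an unadjusted p under 0.05 there were 1 higher and 2 lower, with a median of 0.037 (-0.12 to 0.28 with 1 library left out). At that unadjusted p 3.38% of tested genes were higher and 2.27% lower. Gata1, an erythroid factor known to antagonise PU.1, stood at 24.0, 16.3 and 4.61 FPKM in CD34-positive replicates 1 to 3, against 67.1, 167, 55.8 and 70.9 FPKM in CD34-negative replicates 1 to 4 (-2.62, SE 0.59). Gata2, which binds stem cell enhancers together with Erg and Fli1, stood at 120.1, 79.96 and 56.8 FPKM in the CD34-positive and 242, 260.2, 415 and 264 FPKM in the CD34-negative replicates (-1.80, SE 0.46). In both the groups did not overlap, where 3.01% of tested genes were separated as lower. Lyl1, found at the same enhancers, went the other way, with 71.1, 66.0 and 44.7 FPKM in the CD34-positive and 51.0, 33.0, 15.8 and 19.2 FPKM in the CD34-negative replicates (1.12, SE 0.45), and was higher in all 4 pairs. Cebpa, a myeloid partner of PU.1, stood at 1.71, 4.90 and 0.805 FPKM in the CD34-positive and 1.16, 1.01, 0.0522 and 0.162 FPKM in the CD34-negative replicates. Gabpb1 and Gabpb2, partners of Gabpa, were named after their values were seen. Gabpb1 averaged 29.5 ± 6.48 FPKM in CD34-positive cells (SD, n = 3) and 18.6 ± 6.88 FPKM in CD34-negative cells (SD, n = 4). It was higher in all 4 pairs (limma adjusted p = 0.0955 with the block), as were 21.4% of tested genes. Gabpb2 averaged 8.55 ± 4.53 and 9.77 ± 6.15 FPKM in these groups (-0.046, SE 0.63). Its differences were 0.61 (number 2), 0.25 (number 3), -0.097 (number 4) and -0.29 (4a).

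Most tested PU.1 targets had differences above 0, and 0 of them passed after adjustment in limma. Of 19 listed 12 were tested, 11 with differences above 0 (median 0.54, 0.31 to 0.81 with 1 library left out, against 0.086 over all tested genes), and Mpo, Lyz2 and Ncf1 had an unadjusted p under 0.05. Over all tested genes most differences were above 0 too, and 3.38% had such a p as higher. Mpo, myeloperoxidase, stood at 1488, 1693 and 883 FPKM in CD34-positive replicates 1 to 3, against 1141, 175, 37.8 and 85.2 FPKM in CD34-negative replicates 1 to 4. Lyz2, a lysozyme, stood at 32.7, 17.1 and 13.9 FPKM in the CD34-positive and 22.9, 2.41, 0.826 and 2.44 FPKM in the CD34-negative replicates. In both genes CD34-negative replicate 1 was the highest of its group, as it was for Cd34. Ncf1, a phagocyte oxidase subunit, had no overlap, with 1.91, 4.30 and 2.46 FPKM in the CD34-positive and 1.56, 1.31, 1.49 and 0.671 FPKM in the CD34-negative replicates. Of all tested genes 2.67% were separated as higher. The granule protease Prtn3 stood at 18.3, 9.13 and 6.35 FPKM in the CD34-positive and 9.25, 8.32, 0.502 and 2.15 FPKM in the CD34-negative replicates. The 7 targets under the minimum were Csf1r, Csf3r, Itgam, Cd14, Cybb, Ctss and Elane. The 6 macrophage markers summed to 8.71 to 12.5 FPKM in CD34-positive libraries and 3.53 to 12.7 FPKM in CD34-negative ones, nearly all of it Cd68, with C1qa at 0.

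Megakaryocyte targets of ETS factors went both ways. Of 11 listed 7 were tested, 4 above and 3 below 0 (median 0.18, -0.22 to 0.48 with 1 library left out), and 0 passed after adjustment in limma. Over all tested genes most differences were above 0. Gp5, a platelet glycoprotein, stood at 1.81, 0.679 and 0.260 FPKM in CD34-positive replicates 1 to 3, against 4.18, 11.3, 1.99 and 4.13 FPKM in CD34-negative replicates 1 to 4, without overlap (-1.62, SE 0.49). Gp1ba, another platelet glycoprotein, also had no overlap, with 14.8, 13.2 and 14.3 FPKM in the CD34-positive and 17.0, 15.5, 32.4 and 17.5 FPKM in the CD34-negative replicates. Of all tested genes 3.01% were separated as lower. The platelet chemokine Ppbp stood at 11.2, 11.6 and 14.3 FPKM in the CD34-positive and 13.8, 4.62, 14.2 and 7.87 FPKM in the CD34-negative replicates.

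Of 11 endothelial and stem cell targets 4 were tested, all with differences above 0 (median 0.55, 0.37 to 0.85 with 1 library left out), and 0 passed after adjustment in limma. Differences above 0 were also the majority over all tested genes, with a median of 0.086. Tie1, a receptor kinase, stood at 3.69, 0.925 and 1.10 FPKM in CD34-positive replicates 1 to 3, against 1.81, 0.173, 0.0346 and 0.137 FPKM in CD34-negative replicates 1 to 4. The adhesion molecule Pecam1 averaged 78.9 ± 19.3 FPKM in CD34-positive cells (SD, n = 3) and 55.9 ± 18.4 FPKM in CD34-negative cells (SD, n = 4). The homeobox factor Hhex averaged 95.4 ± 42.5 and 62.1 ± 23.2 FPKM and Icam2, an adhesion ligand, 44.3 ± 16.02 and 35.6 ± 10.7 FPKM in these groups. Tie1, Pecam1 and Hhex were higher in all 4 pairs, as were 21.4% of tested genes. The endothelial genes Kdr and Tek were listed at 0 in all libraries, and the 5 endothelial markers summed to 1.15 to 4.41 FPKM in CD34-positive libraries and 0.567 to 6.98 FPKM in CD34-negative ones. Nearly all of the CD34-negative upper end was Vwf, which was not tested and was lower in CD34-positive cells without overlap. Vwf stood at 0.274, 0.227 and 0.180 FPKM in the CD34-positive and 0.330, 0.960, 6.95 and 0.430 FPKM in the CD34-negative replicates.

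All 9 listed Gabpa targets were tested, with a median of 0.12 (-0.25 to 0.53 with 1 library left out) and 0 at an unadjusted p under 0.05 in limma with or without the block. Of all tested genes, 3.38% were higher and 2.27% lower at that p without the block, and 12.8% and 9.14% with it. The respiratory chain subunits followed the library number. Cox5b stood at 329, 944 and 6.81 FPKM in CD34-positive replicates 1 to 3, against 323, 1032, 10.2 and 8.91 FPKM in CD34-negative replicates 1 to 4. Cox7c stood at 406, 1568 and 27.1 FPKM in the CD34-positive and 504, 1318, 23.9 and 20.6 FPKM in the CD34-negative replicates. Both were lowest in the libraries numbered 4, where ribosomal protein genes were low too. Sdhb stood at 184, 306 and 87.7 FPKM in the CD34-positive and 181, 280.2, 95.6 and 79.3 FPKM in the CD34-negative replicates. Tfam, which maintains mitochondrial DNA, stood at 16.9, 13.7 and 9.90 FPKM in the CD34-positive and 17.2, 11.2, 8.99 and 12.2 FPKM in the CD34-negative replicates.

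**Figure D4:**
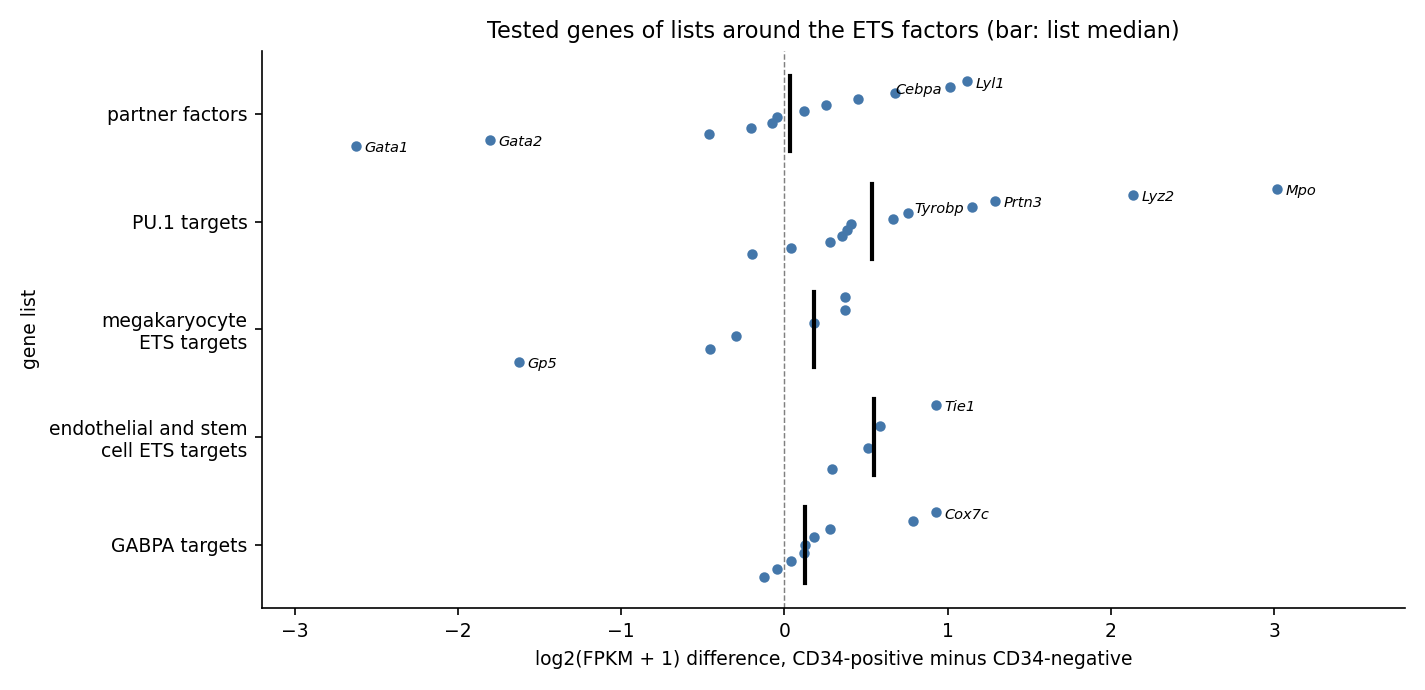
Difference in log2(FPKM + 1), CD34-positive minus CD34-negative, of the tested genes in 5 lists around the ETS factors, 1 gene not reported here left out; each point is a gene, black bars are medians of the whole lists and plotted genes farther than 0.9 from 0 are named. Gata1 (-2.62) and Mpo (3.02) lie farthest out on the left and right, and the Gabpa targets have a median of 0.12.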

How the data were processed

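The authors deposited 1 table of FPKM with a column for each library. Per the submitters' processing notes, TopHat, TopHat2 and Cuffdiff took part and both mm9 and mm10 were named. Neither versions nor annotation nor strandedness is given in the sources used here. Overlapping genes are therefore uncertain, and expression rows carry no coordinates. As FPKM are not counts, no count test was run. The depth is unknown, and whole reads were not recovered from the values.

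Repeated symbols (105 symbols, 322 rows) were dropped. The 9259 genes reaching 1 FPKM in 3 or more libraries entered limma 3.58.1 (R 4.3.3) as log2(FPKM + 1), with a mean-variance trend, two-sided, Benjamini-Hochberg adjusted over all of them at 0.05; the code was tested on simulated data. An adjusted p of 1.0 is rounded. No label says whether libraries are separate cultures, so each p-value reflects the spread among these libraries alone, possibly technical.

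The description numbers were taken as pairs since deviations from group means correlated in each (r = 0.70 for number 3, 0.92 for number 2, 0.82 and 0.85 for number 4). Members and gene lists were chosen with earlier results of these data known. The text names the 7 factors, the tested ETS genes, Cd34, up to 4 genes per list by smallest p and the 3 genes nearest each factor; a gene that this rule takes is not reported here. Alternatives changed pseudocount, filter, scaling, trend, block and libraries.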

Additional observations from a re-analysis of the deposited data

Results flagged for a closer look

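Among the 4 CD34-negative libraries, 1 value stood far from the rest on the log2 scale in 4 of 37 named genes, measured as its distance from the closest value divided by the full range. Chance flags about 1 in 20 groups, and 5.95% of tested genes met the same limit (Dixon's 95% critical value). The quotient was 0.874 for Elf1, low in CD34-negative replicate 2 at 3.31 FPKM. It was 0.837 for Gata2 and 0.839 for Gp1ba, both high in CD34-negative replicate 3, at 415 and 32.4 FPKM. For Tie1 it was 0.874, high in CD34-negative replicate 1 at 1.81 FPKM. With 3 libraries the CD34-positive group was not examined.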

How the results depend on the processing

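None of the 7 factors passed an adjusted p of 0.05 in limma under 20 other settings. Over all tested genes, leaving out 1 library gave 0 to 7 higher and 0 to 3 lower, the 7 and 3 without CD34-negative replicate 1. Erg (0.36 to 1.85), Fli1 (0.23 to 1.34), Etv6 (0.49 to 1.06) and Ets2 (-0.42 to -0.17) kept their sign in each setting that tested them. A filter of 5 FPKM removed Ets1 and Ets2. With the replicate block by description number the differences were 1.34, 1.03, 0.81 and -0.33, and the block changed no call. The cause of the sign changes below was not tested. Leaving out 1 library at a time gave -0.58 to 0.084 for Ets1, -0.29 to 1.34 for Elf1, -0.36 to 0.35 for Gabpa, -0.091 to 0.23 for Elf4, -0.29 to 0.69 for Elk4, -0.21 to 0.17 for Erf, -0.15 to 0.80 for Etv4, -0.22 to 0.63 for Etv5, -0.36 to 2.54 for Cox7c, -0.14 to 0.76 for Sdhb, -0.62 to 2.84 for Cox5b and -0.045 to 0.31 for Tfam. Quantile normalization gave -0.11 for Gabpa and -0.050 for Elf4, and median-ratio scaling -0.093 for Gabpa and -0.047 for Elf4. Gabpa was at -0.080 without number 3. Without number 4, Cox7c was at -0.031 and Cox5b at -0.051. Cox5b was at -0.18 with CD34-negative replicates 3 and 4 averaged, at -0.20 with the block by description number and at -0.20 with the block by title number, where Etv5 was at -0.035. Leaving out number 2, chosen after seeing the data, gave -0.016 for Gabpa, -0.040 for Elf4, 0.041 for Erf and -0.028 for Etv5. With the block as well it gave -0.020 for Elf4, -0.089 for Etv5, -0.23 for Cox5b and -0.053 for Tfam. Because the depth is unknown, so is the precision of low genes such as Ets1.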
